A study of Homo sapiens with 18 samples.

Results

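The interaction of methionase with Vps34-IN1 was measured in 12 of the 18 RNA-seq libraries of the series, those made 24 h after transfection. The cell line was HEK293T, a transformed line from human embryonic kidney that the labels give as wild type. The 4 groups held 3 libraries each: methionase cells given Vps34-IN1 at 5 µM for 12 h, methionase cells given DMSO, cells with the empty vector pLEX given Vps34-IN1 at the same dose, and empty-vector cells given DMSO. All 12 shared the cell line, growth in high-glucose medium with serum before transfection, transfection itself and 1 batch label. The methionase construct carried a nuclear localisation signal, and the table holds no row for it, so its level could not be checked. Those 4 groups make a design in which each treatment is present with and without the other. The labels do not say that replicates came from separate cultures, so p-values measure the spread between these libraries, which may be technical.

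Methionase is an enzyme that breaks down methionine, the amino acid from which cells make S-adenosylmethionine, the methyl donor for histones, DNA and RNA. Vps34, encoded by PIK3C3, is the catalytic subunit of the class 3 PI3-kinase complex, which makes phosphatidylinositol 3-phosphate on endosomes and forming autophagosomes, and Vps34-IN1 inhibits its kinase activity. Under additivity the log2 effects of the 2 treatments on a gene would sum. The interaction is the difference between the methionase effect under Vps34-IN1 and the methionase effect in DMSO, and it equals the drug effect in methionase cells minus the drug effect in vector cells. A negative interaction means that cells with both treatments lay below the sum of the single effects, and a positive one that they lay above it.

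The libraries at 24 h held 18278586 to 20825232 reads assigned to genes, with size factors of 0.89 to 1.1. HEK293T markers were present (NEFM 6968 to 17601 and PAX2 99.1 to 190.3 normalised reads), LHX1 was low (2.1 to 13.2), and the leukocyte and endothelial markers CD3E, LYZ, PECAM1 and VWF reached at most 4.1. Of the liver and fibroblast markers, ALB reached 20.3, APOA1 6.4, DCN 2 and COL1A1 671.6. Mitochondrial ribosomal RNA took 1.89 to 2.47% of reads with both treatments, 0.938 to 2.01% with methionase alone, 0.985 to 1.35% with Vps34-IN1 alone and 0.48 to 0.657% in vector DMSO libraries. This share differed between the groups along with the genes below, and its part in the results was not tested. Methionase DMSO replicate 1 had 2.11% of its reads on mitochondrial mRNAs, against 3.96% and 4.61% in the other methionase DMSO libraries.

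The methionase and Vps34-IN1 effects departed from additivity in 3878 of 17755 tested genes, or 21.8% (limma moderated test across all libraries, Benjamini-Hochberg adjusted p below 0.05). The interaction was negative in 2117 genes (11.9%) and positive in 1761 (9.92%). It reached at least 1 on the log2 scale in 74 negative genes (0.417%) and 20 positive genes (0.113%). The largest negative values were RHOB (-3.90), CCN1 (-3.87), ATF3 (-3.19) and JUN (-3.08), all stress-responsive early genes. The largest positive values were SLC2A3 (1.41), RBM12 (1.33) and CYTB (1.32). The deposited values are variance-stabilised log2 values, which compress differences of genes with few reads. On voom values from the recovered reads, 707 genes were called with at least 1 on the log2 scale, against 94 on the deposited scale.

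The effect of Vps34-IN1 was called in fewer genes with methionase than without it, and the interaction is the test of that difference gene by gene. The drug effect passed the test in 1408 genes (7.93%) in methionase cells and in 7122 (40.1%) in vector cells. In methionase cells 523 genes (2.95%) were higher and 885 (4.98%) lower with the drug, and in vector cells 3595 (20.2%) were higher and 3527 (19.9%) lower. Its mean absolute size over all tested genes was 0.12 in methionase cells and 0.22 in vector cells on the log2 scale. Without methionase DMSO replicate 3 the count in methionase cells was 860, with only the 24 h libraries in the fit it was 820, and with library quality weights 625. The methionase effect was called in 7016 genes (39.5%) under Vps34-IN1 and in 6955 (39.2%) in DMSO. Across genes the 2 drug effects, which share no library, correlated at 0.343 by value (Pearson) and 0.263 by rank (Spearman), and the 2 methionase effects, which also share none, correlated at 0.499 by value and 0.451 by rank (17755 genes, which are not independent replicates).

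**Figure D1:**
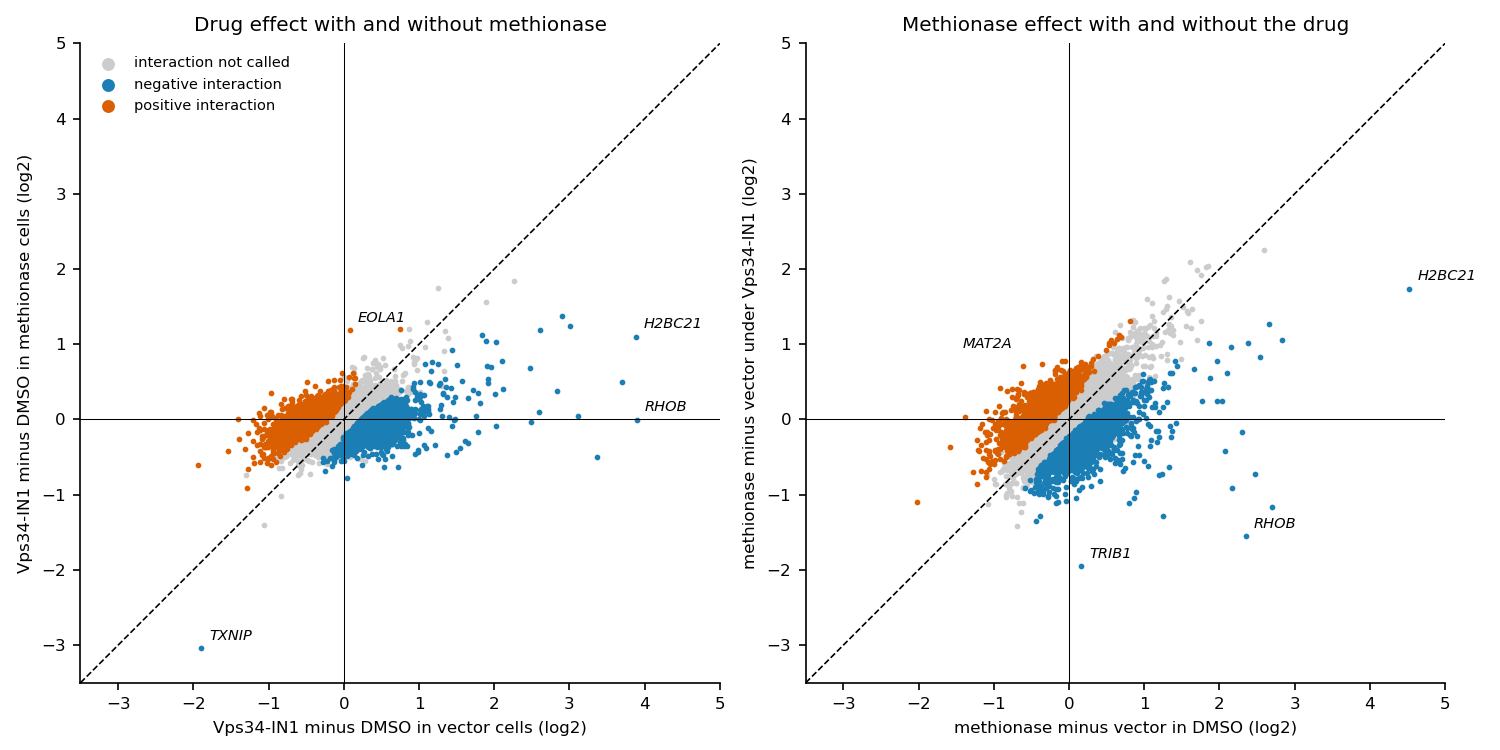
Each point is 1 of 17755 tested genes. The left panel plots the Vps34-IN1 effect in methionase cells (y) against that in vector cells (x), and the right panel the methionase effect under Vps34-IN1 (y) against that in DMSO (x), in log2 on the deposited scale; the dashed line marks equal effects and colours mark the sign of a called interaction. The drug effects spread more widely along x than along y, with RHOB at 0.00 in methionase cells and 3.89 in vector cells.

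Most called genes followed 1 of 2 arrangements. Among the 2117 negative genes, both single-treatment means lay above vector DMSO in 1601 (75.6%, against 35.4% of all tested genes). Among the 1761 positive genes, both lay below vector DMSO in 1601 (90.9%, against 33.8%). The vector DMSO mean enters the interaction itself, so the test favours such genes. With both treatments, the mean lay closer to methionase alone than to Vps34-IN1 alone in 1688 negative genes (79.7%) and 1174 positive genes (66.7%), against 68.4% of all tested genes. The combined libraries overlapped the methionase DMSO libraries in 72.5% of negative and 72.1% of positive genes, against 80.4% of all tested genes. They overlapped the vector Vps34-IN1 libraries in 31.2% of negative and 47.6% of positive genes, against 55.4% overall. Measured in normalised reads in place of log2 values, the departure from additivity had the same sign in 2113 of 2117 negative genes and in all 1761 positive genes. Where both single means lie on the same side of vector DMSO, a positive log2 departure brings a positive one in reads by arithmetic. Most positive genes had that arrangement, so their shared sign was largely fixed in advance.

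**Figure D2:**
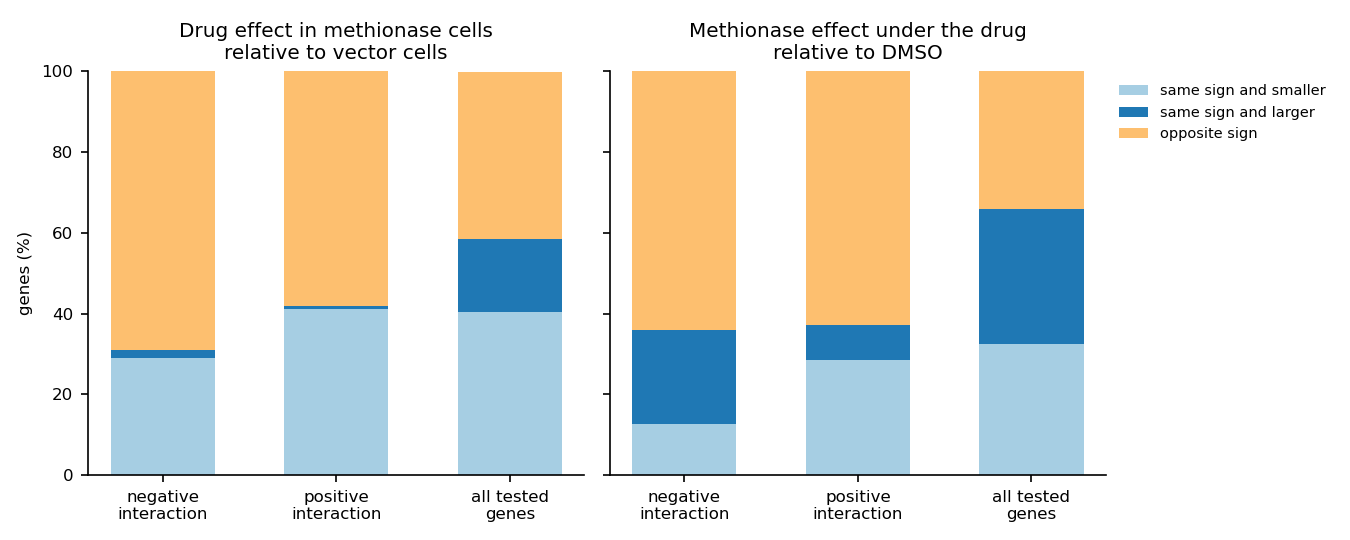
Bars give the share of genes (%) whose effect with the other treatment present had the same sign and was smaller, had the same sign and was larger, or had the opposite sign, for genes with a negative interaction, a positive interaction, and all tested genes. The drug effect in methionase cells had the same sign and was larger in 2.03% of negative and 0.909% of positive genes, against 18.1% of all tested genes.

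Immediate early genes, which cells switch on within minutes of stress or growth signals, made the largest departures. RHOB, an endosomal small GTPase, had 17826, 24628 and 26184 normalised reads in methionase Vps34-IN1 libraries, 23955, 19637 and 24506 in methionase DMSO libraries, 61148, 66973 and 70919.8 in vector Vps34-IN1 libraries and 4596, 4809 and 3779.6 in vector DMSO libraries. The combined libraries overlapped those with methionase alone, and both lay above vector DMSO and below Vps34-IN1 alone. Methionase alone raised RHOB by 2.35 and Vps34-IN1 alone by 3.89 on the log2 scale, a sum of 6.24, whereas cells with both treatments were 2.35 above vector DMSO. The interaction was -3.90 ± 0.19 (SE, adjusted p = 1.55e-12).

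JUN, a subunit of the transcription factor AP-1, and ATF3, a stress-induced factor that pairs with JUN, had the same arrangement. JUN had 30087, 30939.5 and 28263 normalised reads in methionase Vps34-IN1 libraries, 33381, 26679 and 27129 in methionase DMSO libraries, 50025, 55315 and 63130.1 in vector Vps34-IN1 libraries and 6627, 7269 and 5358 in vector DMSO libraries. With both treatments JUN overlapped methionase alone and was below every library with Vps34-IN1 alone, and its interaction was -3.08 ± 0.20 (SE, adjusted p = 3.23e-10). For ATF3 the reads were 12507, 25452 and 26039 normalised reads with both treatments, 17926, 13938 and 11647 with methionase alone, 29863, 34460.4 and 36324 with Vps34-IN1 alone and 2744, 2833 and 2023 in vector DMSO libraries. Its combined libraries ranged widely and overlapped methionase alone only; replicate 1 was the low one, with an interaction of -3.19 ± 0.31 (SE, adjusted p = 2.32e-07). KLF6, a zinc finger factor induced by injury, had 2302 normalised reads with both treatments, 2331 with methionase alone, 5659 with Vps34-IN1 alone and 934 in vector DMSO cells, and its interaction was -2.53 ± 0.17 (SE, adjusted p = 6.41e-10).

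The promoters of these 3 genes are shown because they share the 8 letters TGACATCA, the site first described in the JUN promoter as a target of JUN and ATF2. They are RefSeq windows of the GRCh38.p14 build from 250 bases before to 50 bases after the annotated start, written 5′ to 3′ on the gene's strand, with the site in capitals. A single window was taken per gene, and reads per gene do not show which start the cells used. ATF3 lies at chr1:212565157-212565456, plus strand, JUN at chr1:58783998-58784297, minus strand, and KLF6 at chr10:3785160-3785459, minus strand.
ATF3: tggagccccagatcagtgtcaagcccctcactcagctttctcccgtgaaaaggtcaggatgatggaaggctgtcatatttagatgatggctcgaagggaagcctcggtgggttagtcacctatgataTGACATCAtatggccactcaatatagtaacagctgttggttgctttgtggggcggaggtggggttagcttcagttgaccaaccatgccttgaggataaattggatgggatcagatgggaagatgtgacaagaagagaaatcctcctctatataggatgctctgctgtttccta
JUN: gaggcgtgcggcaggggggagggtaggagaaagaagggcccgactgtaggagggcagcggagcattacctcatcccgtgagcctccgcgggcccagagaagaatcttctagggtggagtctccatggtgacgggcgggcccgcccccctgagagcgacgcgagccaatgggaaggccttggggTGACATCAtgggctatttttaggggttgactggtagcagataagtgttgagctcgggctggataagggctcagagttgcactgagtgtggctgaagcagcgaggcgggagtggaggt
KLF6: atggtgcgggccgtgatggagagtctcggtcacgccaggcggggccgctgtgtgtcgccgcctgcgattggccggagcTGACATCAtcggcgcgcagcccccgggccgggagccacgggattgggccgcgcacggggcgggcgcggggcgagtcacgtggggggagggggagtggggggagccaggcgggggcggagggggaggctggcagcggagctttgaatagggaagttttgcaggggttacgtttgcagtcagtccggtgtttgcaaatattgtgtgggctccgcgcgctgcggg
Counted from the first transcribed base as 0, the site starts at base -123 in ATF3, -67 in JUN and -172 in KLF6. Searched on both strands, TGACATCA was in 3 of the 8 windows on hand for the 12 largest negative genes and in 0 of the 7 for the 12 largest positive genes. It was in 2.71% of all 27305 windows and in 1.54% of the 12911 windows of tested genes. Other sites were searched in the same windows. TGANTCA, the AP-1 site with any base at N, was in 0 of the 8 negative and 0 of the 7 positive windows. CACGTG was in 2 of the 8 and 1 of the 7, and TGACGTCA in 1 of the 8 and 1 of the 7. The letters shown were chosen from these sites with the gene values known, and a match is a description of the sequence only.

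**Figure D3:**
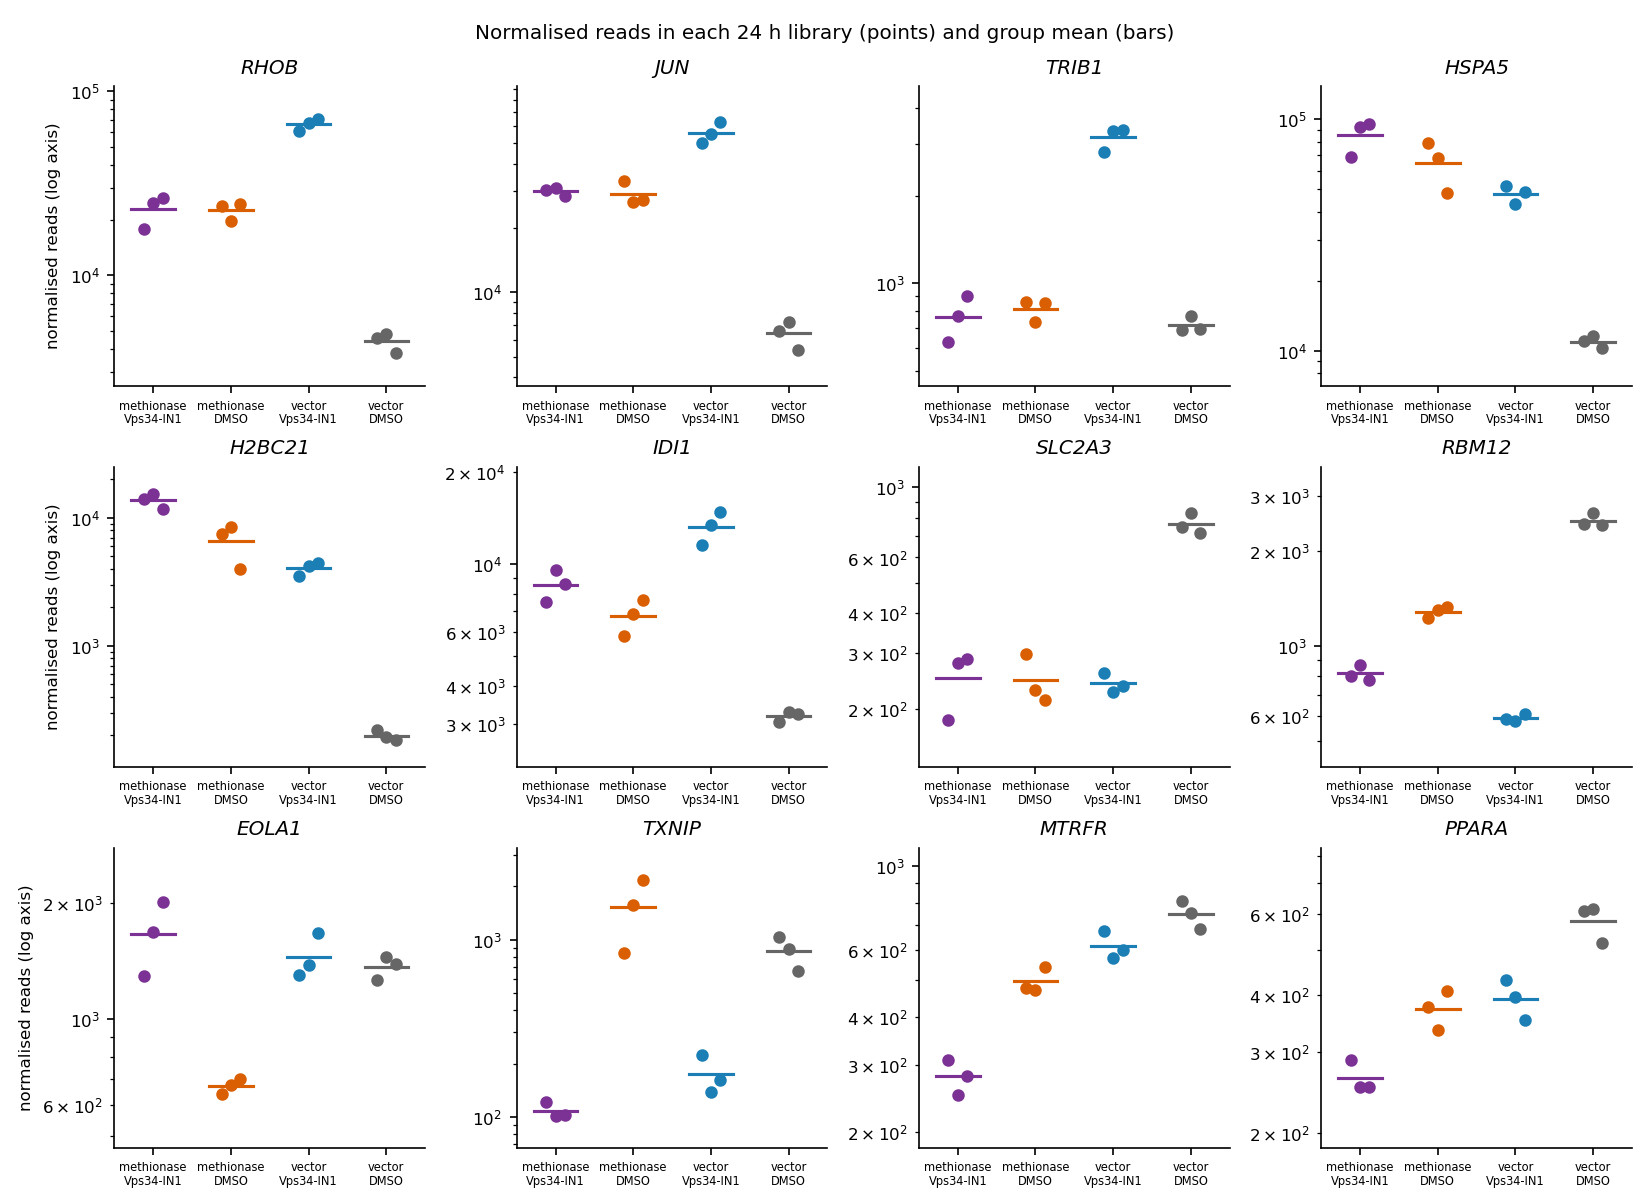
Normalised reads (log axis) of 12 genes in each 24 h library; points are libraries, bars are group means, and the groups run from both treatments on the left through methionase DMSO and vector Vps34-IN1 to vector DMSO on the right. RHOB, JUN and TRIB1 are highest with Vps34-IN1 alone, H2BC21 is highest and MTRFR and TXNIP are lowest with both treatments, and PPARA is lowest with both treatments and highest in vector DMSO libraries.

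Of the 13 tested members of the AP-1 list, 9 had a negative interaction (69.2%, against 11.9% of all tested genes) and 1 a positive one (7.69%, against 9.92%), with a median of -0.60, beside 0.00 over all tested genes. FOS, JUN's partner, averaged 1119 normalised reads with both treatments, 909 with methionase alone, 498 with Vps34-IN1 alone and 107 in vector DMSO cells, an interaction of -1.37 ± 0.31 (SE, adjusted p = 0.00242). JUND (-1.34) was also negative, and JDP2, a repressor of AP-1 sites, was the positive member, at 0.66 ± 0.14 (SE, adjusted p = 0.00119). Among 29 other immediate early genes 18 were negative (62.1%) and 1 positive (3.45%), with a median of -0.58. CCN1, a secreted matrix protein and YAP-TEAD target, had 795, 1208 and 2149 normalised reads with both treatments, 2368, 1624 and 1633 with methionase alone, 2518, 3247 and 3231 with Vps34-IN1 alone and 245, 217 and 189 in vector DMSO libraries. Its combined libraries overlapped methionase alone and lay below Vps34-IN1 alone (interaction -3.87 ± 0.27 SE, adjusted p = 8.99e-10). NR4A1, an orphan nuclear receptor, averaged 5149.6 ± 1682 normalised reads with both treatments, 1868 ± 222 with methionase alone, 4213 ± 726 with Vps34-IN1 alone and 489 ± 30.2 in vector DMSO cells (SD, n = 3 each). It was called negative at -1.52 ± 0.22 (SE, adjusted p = 3.33e-05), although cells with both treatments exceeded methionase alone by 1.37 on the log2 scale (adjusted p = 5.90e-06). The positive member was EGR1, a zinc finger factor, at 0.64 ± 0.17 (SE, adjusted p = 0.00898); the call was lost with voom (adjusted p = 0.0811) and with log2 of reads plus 1 (adjusted p = 0.0677).

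TRIB1, a pseudokinase that guides ubiquitin ligases, had no called methionase effect in DMSO (0.16, adjusted p = 0.22). It had 627, 769.9 and 901 normalised reads with both treatments, 859.8, 734 and 852 with methionase alone, 2827, 3341 and 3364 with Vps34-IN1 alone and 692, 772 and 695 in vector DMSO libraries. The combined, methionase DMSO and vector DMSO libraries overlapped, and the vector Vps34-IN1 libraries stood apart. The drug effect on TRIB1 was -0.09 (adjusted p = 0.641) in methionase cells and 2.02 (adjusted p = 3.30e-13) in vector cells, an interaction of -2.11 ± 0.14 (SE, adjusted p = 6.41e-10). The dual-specificity phosphatases, which switch off MAP kinases, had 5 negative (45.5%, against 11.9% of all tested genes) and 0 positive calls among 11 tested members, with a median of -0.30 that became -0.78 on voom values. DUSP1 averaged 4477 normalised reads with both treatments, 3341 with methionase alone, 4834 with Vps34-IN1 alone and 608 in vector DMSO cells, an interaction of -2.46 ± 0.25 (SE, adjusted p = 4.37e-07), and DUSP5 was at -1.92. In the YAP-TEAD target list 8 of 19 tested members were negative (42.1%) and 2 positive (10.5%, against 9.92%), with AJUBA, an adaptor of the Hippo pathway, among the positive ones (interaction 0.69 ± 0.12 SE, adjusted p = 2.27e-04).

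**Figure D4:**
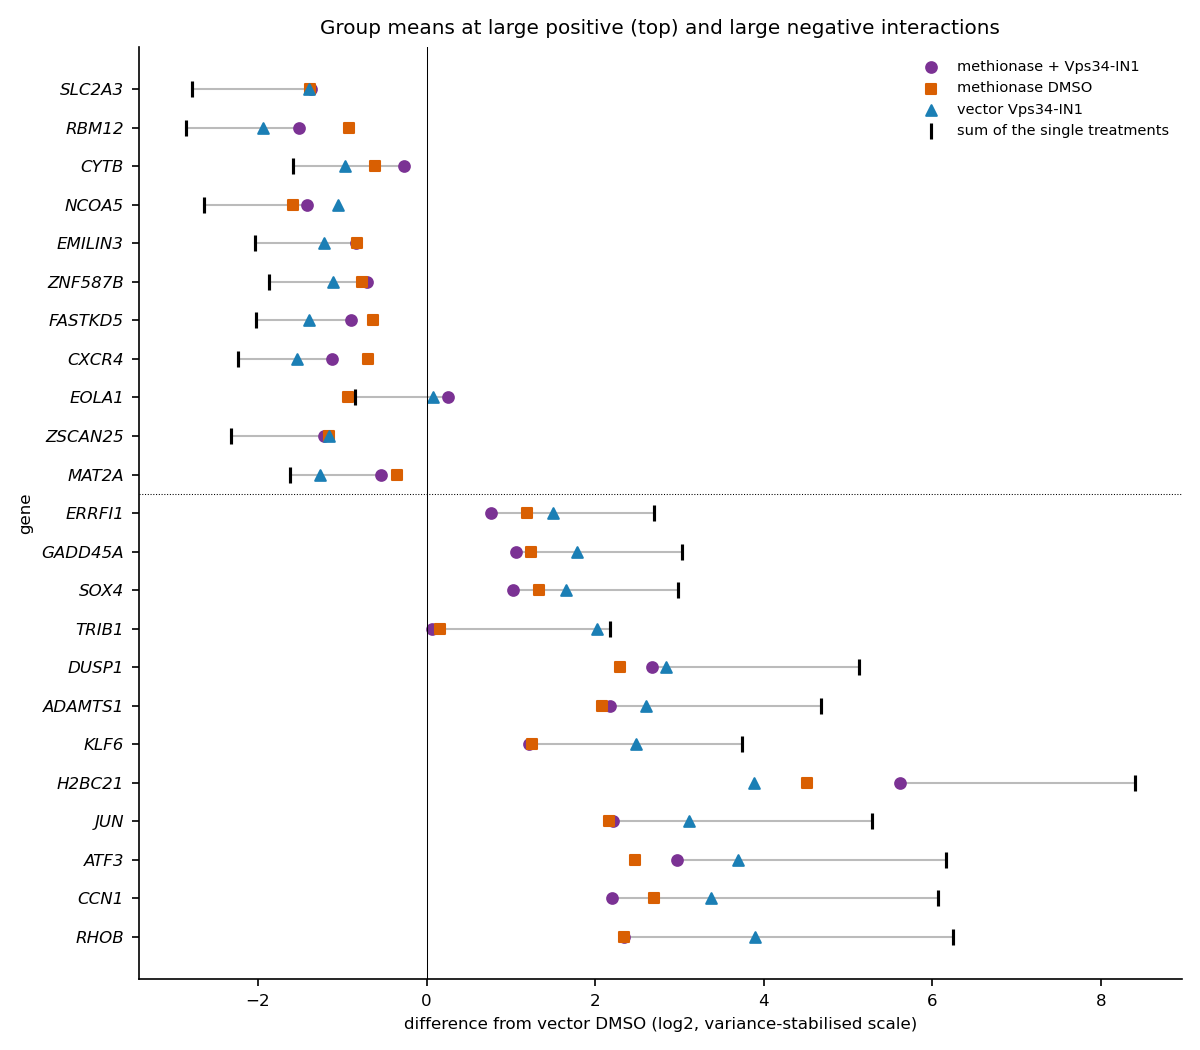
Group means of 11 of the 12 largest positive (upper rows) and the 12 largest negative interactions as log2 differences from vector DMSO: both treatments (circles), methionase alone (squares), Vps34-IN1 alone (triangles), and the sum of the single differences (vertical ticks). RHOB lies at 2.35 with both treatments against a sum of 6.24, and RBM12 at -1.52 against -2.85.

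Genes of the unfolded protein response, by which the endoplasmic reticulum (ER) raises its folding capacity, also ended below the sum. Of 30 tested members 18 had a negative interaction (60%, against 11.9% of all tested genes) and 0 a positive one, with a median of -0.35. HSPA5, the main ER chaperone, had 68482, 92494 and 95948 normalised reads with both treatments, 79146, 67978 and 48215 with methionase alone, 51387, 43183 and 48614 with Vps34-IN1 alone and 10986, 11561 and 10255 in vector DMSO libraries. The combined libraries were the highest group and overlapped methionase alone, but lay 2.95 above vector DMSO on the log2 scale against a sum of 4.65, an interaction of -1.71 ± 0.18 (SE, adjusted p = 6.11e-07). HERPUD1, a membrane protein of ER-associated degradation, averaged 5322 normalised reads with both treatments, 4053 with methionase alone, 6639.9 with Vps34-IN1 alone and 1877 in vector DMSO cells (interaction -1.42 ± 0.19 SE, adjusted p = 8.54e-06).

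Among the sensors of the response, EIF2AK3 took another arrangement. EIF2AK3, the kinase PERK, had 183, 198 and 266 normalised reads with both treatments, 218, 237 and 239.6 with methionase alone, 706, 627 and 673 with Vps34-IN1 alone and 347, 354 and 318 in vector DMSO libraries. Its combined and methionase DMSO libraries overlapped below vector DMSO, while Vps34-IN1 alone lay above every other library. The drug effect on EIF2AK3 was -0.09 (adjusted p = 0.582) in methionase cells and 0.83 (adjusted p = 6.66e-08) in vector cells, and the interaction was -0.92 ± 0.12 (SE, adjusted p = 9.95e-06). ERN1, the sensor IRE1, averaged 552 normalised reads with both treatments, 605 with methionase alone, 924 with Vps34-IN1 alone and 471 in vector DMSO cells, so each single treatment lay above vector DMSO, and its interaction was -0.98 ± 0.13 (SE, adjusted p = 1.64e-05). For its target XBP1, the reads were 3089, 5229 and 6099 normalised reads with both treatments, 4501, 4220.2 and 4303 with methionase alone, 7958, 8498 and 7783 with Vps34-IN1 alone and 4443, 4256 and 3823 in vector DMSO libraries. The combined XBP1 libraries overlapped methionase alone and vector DMSO, with replicate 1 lowest. Its interaction was -0.85 ± 0.19 (SE, adjusted p = 0.00274), and without that library it was -0.57 (adjusted p = 8.96e-04). The methionase effect on SEC24D, a cargo adaptor of COPII vesicles, was -0.88 (adjusted p = 1.87e-09) under Vps34-IN1 and 0.29 (adjusted p = 0.00155) in DMSO, an interaction of -1.17 ± 0.10 (SE, adjusted p = 1.31e-08).

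The promoters of HSPA5 and of HSP90B1, the ER form of HSP90 (interaction -0.76 ± 0.10 SE, adjusted p = 6.20e-06), are shown because they hold the ER stress response element, CCAAT and CCACG separated by any 9 bases, known as a binding site of NF-Y and ATF6. The windows are built as above, with the element in capitals; the second match in HSP90B1 is on the opposite strand. HSPA5 lies at chr9:125241294-125241593, minus strand, and HSP90B1 at chr12:103930160-103930459, plus strand.
HSPA5: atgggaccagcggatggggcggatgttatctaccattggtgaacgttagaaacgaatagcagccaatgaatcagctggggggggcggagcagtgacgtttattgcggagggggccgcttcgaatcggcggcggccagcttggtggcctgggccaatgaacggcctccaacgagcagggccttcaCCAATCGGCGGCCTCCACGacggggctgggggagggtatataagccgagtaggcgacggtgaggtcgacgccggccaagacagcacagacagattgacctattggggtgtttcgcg
HSP90B1: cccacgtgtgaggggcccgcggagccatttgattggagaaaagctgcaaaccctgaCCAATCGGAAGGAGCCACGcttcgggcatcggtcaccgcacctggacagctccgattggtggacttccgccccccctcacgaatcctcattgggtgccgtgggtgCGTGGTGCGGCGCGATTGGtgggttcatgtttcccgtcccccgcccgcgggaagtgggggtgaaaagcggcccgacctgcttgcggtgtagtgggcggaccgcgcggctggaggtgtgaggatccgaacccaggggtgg
The element starts at base -66 in HSPA5 and at -194 and -89 in HSP90B1. Searched on both strands, it was in 5 of the 16 windows of called ER genes (CALR, CANX, HSP90B1, HSPA5 and XBP1), and in 6 of the 27 windows of tested ER genes. It was in 0.0806% of all 27305 windows and in 0.124% of the 12911 windows of tested genes. The element was looked for along with other sites, with the gene values known.

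Cholesterol synthesis genes, driven by SREBP2, followed the same direction. Of 29 tested members 14 had a negative interaction (48.3%, against 11.9% of all tested genes) and 1 a positive one (3.45%), with a median of -0.28. IDI1, an isomerase of the isoprenoid pathway, had 7492, 9548 and 8593 normalised reads with both treatments, 5821, 6876 and 7612 with methionase alone, 11524, 13409 and 14718 with Vps34-IN1 alone and 3063, 3285 and 3241 in vector DMSO libraries. Its combined libraries overlapped methionase alone and lay below Vps34-IN1 alone, with an interaction of -1.68 ± 0.13 (SE, adjusted p = 5.37e-09). SQLE, squalene epoxidase, had 5048, 5503 and 4289.8 normalised reads with both treatments, 6519, 7065 and 7153 with methionase alone, 7052, 7326 and 6788 with Vps34-IN1 alone and 4333, 4400.4 and 4728 in vector DMSO libraries. Each single treatment raised SQLE above every vector DMSO library, and the combined libraries overlapped vector DMSO and neither single treatment (interaction -1.12 ± 0.10 SE, adjusted p = 4.70e-08). MSMO1, a sterol demethylation enzyme, averaged 2319 normalised reads with both treatments, 2991 with methionase alone, 2453 with Vps34-IN1 alone and 1375 in vector DMSO cells (interaction -1.16 ± 0.09 SE, adjusted p = 3.11e-09). INSIG1, which retains SREBP in the ER, was at -1.32, and HMGCS1, an early enzyme of the pathway, was at -1.42. SREBF1, which encodes SREBP1, was the positive member (interaction 0.38 ± 0.10 SE, adjusted p = 0.00721). The site TCACNCCAC (SRE-1), also searched in promoter windows, was in 1 of the 11 windows of called members. It was in 1.11% of the windows of tested genes.

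Among the histone genes, H2BC21 and H1-2 were highest with both treatments and still lay below the log2 sum. H2BC21, a histone H2B gene, had 13948, 15394 and 11826 normalised reads with both treatments, 7446, 8442 and 3989 with methionase alone, 3483, 4178 and 4479 with Vps34-IN1 alone and 219, 194 and 184 in vector DMSO libraries. Every combined library lay above every single-treatment library, and these lay above vector DMSO. The combined cells were 5.62 above vector DMSO on the log2 scale against a sum of 8.40, an interaction of -2.78 ± 0.23 (SE, adjusted p = 1.49e-08). In normalised reads the departure had the other sign, with 3249.7 reads more than the sum of the single differences. H1-2, a linker histone gene, averaged 7517 normalised reads with both treatments, 3161 with methionase alone, 3571 with Vps34-IN1 alone and 371 in vector DMSO cells, with a log2 interaction of -1.77 ± 0.18 (SE, adjusted p = 2.65e-07) and 1157 reads more than the sum. Of 30 tested replication-dependent histone genes 11 were negative (36.7%, against 11.9% of all tested genes) and 0 positive, with a median of -0.23; on voom values 17 were called and the median was -1.25. The share of reads on 71 histone genes was 0.305 to 0.318% with both treatments, 0.184 to 0.233% with methionase alone, 0.191 to 0.198% with Vps34-IN1 alone and 0.0789 to 0.0929% in vector DMSO libraries, and its part in the results of other genes was not tested. The sequences of these genes resemble each other closely, so reads may be split between copies, and most of their normal transcripts lack the poly-A tail by which the libraries were made.

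Among CDK inhibitors and growth arrest genes 7 of 20 were negative (35%, against 11.9% of all tested genes) and 0 positive, with a median of -0.24. CDKN1A, the cell cycle inhibitor p21, had 1575, 1425 and 1249.5 normalised reads with both treatments, 2216, 1943 and 2459 with methionase alone, 2822, 3202 and 2845 with Vps34-IN1 alone and 2639.5, 2511 and 2335 in vector DMSO libraries. The combined libraries lay below every other library. The drug effect on CDKN1A was -0.61 (adjusted p = 4.19e-05) in methionase cells and 0.24 (adjusted p = 0.0221) in vector cells, an interaction of -0.85 ± 0.11 (SE, adjusted p = 1.35e-05). GADD45A and GADD45B, stress sensors of growth arrest, were at -1.96 and -1.85. Of 18 BCL2 family genes 6 were negative (33.3%, against 11.9%) and 2 positive (11.1%, against 9.92%). PMAIP1 (-1.39) and BBC3 (-0.98), pro-apoptotic members known as NOXA and PUMA, were the most negative of those named. The positive members, BOK (0.57) and BMF (0.38), are pro-apoptotic too, so this class was called in both directions. The BMF call was lost after quantile normalization (adjusted p = 0.184) and with voom (adjusted p = 0.0694), among other settings. DDIT3, the stress factor CHOP, averaged 1418 normalised reads with both treatments, 804 with methionase alone, 2015 with Vps34-IN1 alone and 488 in vector DMSO cells (interaction -1.19 ± 0.28 SE, adjusted p = 0.00339).

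Where glycolysis and hypoxia genes were called, most were positive. Of 42 tested members 11 had a positive interaction (26.2%, against 9.92% of all tested genes) and 2 a negative one (4.76%, against 11.9%), with a median of 0.08 that became 0.20 after quantile normalization. SLC2A3, the glucose transporter GLUT3, had 184, 279 and 288 normalised reads in methionase Vps34-IN1 libraries, 297, 229 and 213 in methionase DMSO libraries, 259, 226 and 236 in vector Vps34-IN1 libraries and 750.2, 826 and 718 in vector DMSO libraries. The 3 treated groups overlapped one another, all below vector DMSO. The difference from vector DMSO on the log2 scale was -1.38 for methionase alone and -1.40 for Vps34-IN1 alone. With both treatments it was -1.37, against a sum of -2.78, an interaction of 1.41 ± 0.21 (SE, adjusted p = 4.40e-05). The kinase gene PFKFB4, which sets a glycolytic activator, also had its 3 treated groups below vector DMSO (interaction 1.07 ± 0.14 SE, adjusted p = 1.03e-05). Its combined libraries overlapped each single treatment, but the single treatments did not overlap each other. SLC2A1, the transporter GLUT1, averaged 636 normalised reads with both treatments, 561 with methionase alone, 939 with Vps34-IN1 alone and 1338 in vector DMSO cells (interaction 0.63 ± 0.13 SE, adjusted p = 9.60e-04), and PDK1, which restrains pyruvate oxidation, was at 0.51 ± 0.13 (SE, adjusted p = 0.00538). HIF1A, the oxygen-regulated factor that drives many of these genes, went the other way. It had 797, 708 and 714 normalised reads with both treatments, 959, 953 and 919 with methionase alone, 1450.5, 1400.5 and 1407 with Vps34-IN1 alone and 1320.2, 1301 and 1220.2 in vector DMSO libraries, and its 4 groups did not overlap. The combined difference from vector DMSO was -0.73 on the log2 scale, against a sum of -0.27 (interaction -0.46 ± 0.08 SE, adjusted p = 2.70e-04).

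Genes for RNA-binding and splicing proteins were called in both directions, 13 positive and 9 negative of 42 tested, a share of 52.4% beside 21.8% of all tested genes, with a median of -0.08 that was 0.05 after quantile normalization. RBM12, an RNA-binding protein of the nucleus, had 803, 870.0 and 778 normalised reads in methionase Vps34-IN1 libraries, 1226, 1299 and 1326 in methionase DMSO libraries, 584, 578 and 607 in vector Vps34-IN1 libraries and 2430.1, 2639 and 2425 in vector DMSO libraries. No groups overlapped, and the combined libraries lay between the single treatments. Methionase lowered RBM12 in DMSO, at -0.92 (adjusted p = 3.91e-10), and raised it under Vps34-IN1, at 0.42 (adjusted p = 2.44e-05), for an interaction of 1.33 ± 0.09 (SE, adjusted p = 8.67e-10). SR proteins were split, with SRSF3 (0.97), SRSF6 (0.80) and SRSF2 (0.73) positive and SRSF4 negative (-0.97). CLK1 (-1.37) and CLK4 (-1.55), kinases that phosphorylate SR proteins, were negative. CLK4 averaged 600.4 ± 53.5 normalised reads with both treatments, 780.1 ± 34.6 with methionase alone, 918 ± 20.3 with Vps34-IN1 alone and 354 ± 79.2 in vector DMSO cells (SD, n = 3 each).

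Some other genes with large positive interactions, though not all, also had a positive methionase effect under Vps34-IN1 and a negative one in DMSO. FASTKD5, which processes mitochondrial RNA, had 252, 234 and 254 normalised reads with both treatments, 311, 318 and 308 with methionase alone, 161, 146 and 158 with Vps34-IN1 alone and 482, 533 and 575 in vector DMSO libraries, 4 groups without overlap. Its methionase effect was 0.49 (adjusted p = 1.67e-05) under Vps34-IN1 and -0.63 (adjusted p = 4.54e-07) in DMSO, an interaction of 1.12 ± 0.11 (SE, adjusted p = 1.04e-07). The same held for CXCR4, a chemokine receptor (1.11 ± 0.17 SE, adjusted p = 5.20e-05), EMILIN3, a matrix glycoprotein (1.20 ± 0.13 SE, adjusted p = 7.90e-07), and the zinc finger gene ZNF587B (1.16 ± 0.11 SE, adjusted p = 1.79e-07). NCOA5, a nuclear receptor coregulator, averaged 304 normalised reads with both treatments, 264 with methionase alone, 418 with Vps34-IN1 alone and 951 in vector DMSO cells. Every treated mean lay below vector DMSO. Its methionase effect under Vps34-IN1 was -0.37 (adjusted p = 0.00169), and its interaction was 1.21 ± 0.12 (SE, adjusted p = 3.48e-07). ZSCAN25, another zinc finger gene, was at 1.10 ± 0.13 (SE, adjusted p = 3.62e-06). Its methionase effect under Vps34-IN1 was not called (-0.06, adjusted p = 0.68).

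The methionine cycle list had 2 positive and 3 negative calls among 18 tested genes, a share of 27.8% beside 21.8% of all tested genes. MAT2A, which makes S-adenosylmethionine from methionine, had 4257, 3283 and 3691 normalised reads in methionase Vps34-IN1 libraries, 2946, 4811 and 5309 in methionase DMSO libraries, 1708, 2807 and 2235 in vector Vps34-IN1 libraries and 5167, 4844 and 6405 in vector DMSO libraries. The combined libraries overlapped methionase alone, lay above Vps34-IN1 alone and below vector DMSO. The drug effect on MAT2A was -0.18 (adjusted p = 0.577) in methionase cells and -1.27 (adjusted p = 2.83e-06) in vector cells, an interaction of 1.09 ± 0.24 (SE, adjusted p = 0.00221). Methionase DMSO replicate 1 was the low library of its group, and without it the MAT2A interaction was 0.84 (adjusted p = 0.00606). METTL16, which methylates MAT2A RNA and controls its splicing, went the other way, at 1449.9, 1667 and 1544 normalised reads with both treatments, 1897, 1833 and 1737 with methionase alone, 2197, 2039 and 2086 with Vps34-IN1 alone and 1430.4, 1674 and 1486 in vector DMSO libraries. Its combined libraries overlapped vector DMSO, and Vps34-IN1 alone lay above every other library (interaction -0.66 ± 0.10 SE, adjusted p = 3.68e-05). MTR, methionine synthase, was positive (interaction 0.60 ± 0.10 SE, adjusted p = 9.17e-05), and AHCYL2, related to the hydrolase of S-adenosylhomocysteine, negative (interaction -0.56 ± 0.10 SE, adjusted p = 3.44e-04).

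In the ATF4 and amino acid response list 11 of 48 tested genes were positive (22.9%, against 9.92% of all tested genes) and 4 negative (8.33%, against 11.9%), with a median of 0.00, or 0.11 after quantile normalization. SLC7A11, the cystine importer, averaged 486 normalised reads with both treatments, 399 with methionase alone, 548 with Vps34-IN1 alone and 939 in vector DMSO cells (interaction 0.92 ± 0.17 SE, adjusted p = 4.36e-04). SLC6A9, a glycine transporter, was at 0.90 ± 0.11 (SE, adjusted p = 3.46e-06). CHAC1, which degrades glutathione, had 125, 238 and 146 normalised reads with both treatments, 174, 119 and 131 with methionase alone, 561, 399 and 375 with Vps34-IN1 alone and 1059, 842 and 567 in vector DMSO libraries, an interaction of 0.92 ± 0.28 (SE, adjusted p = 0.0226). The combined CHAC1 libraries overlapped methionase alone, and both lay below Vps34-IN1 alone. The call was lost without methionase Vps34-IN1 replicate 2, methionase DMSO replicate 2, vector Vps34-IN1 replicate 2 or 3, or vector DMSO replicate 1 (adjusted p between 0.0516 and 0.0832). It was also lost without the filter on low values (adjusted p = 0.0652) and with voom (adjusted p = 0.0669). PPP1R15A, which reverses the translation block of this response, was among the negative ones (interaction -1.44 ± 0.19 SE, adjusted p = 1.06e-05). SAT1, the enzyme that acetylates spermidine and spermine for breakdown, averaged 5565 normalised reads with both treatments, 5378 with methionase alone, 4596 with Vps34-IN1 alone and 1294 in vector DMSO cells (interaction -1.71 ± 0.19 SE, adjusted p = 1.25e-06).

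Genes that write or remove methyl marks were called in both directions. Of 34 histone lysine methyltransferase genes 9 were negative (26.5%, against 11.9% of all tested genes) and 1 positive, with a median of -0.16, or -0.08 after quantile normalization. Of 21 histone demethylase genes 9 were negative (42.9%) and 3 positive (14.3%, against 9.92%), with a median of -0.17. SUV39H1, which methylates histone H3 lysine 9, was at -0.52 ± 0.11 (SE, adjusted p = 0.00207). JMJD1C, a member of the JmjC family, averaged 337 ± 72.8 normalised reads with both treatments, 454 ± 46.6 with methionase alone, 743 ± 62.5 with Vps34-IN1 alone and 473 ± 16.2 in vector DMSO cells (SD, n = 3 each), an interaction of -0.94 ± 0.13 (SE, adjusted p = 2.78e-05). KDM7A (-0.71) and KDM6A (-0.53), demethylases of repressive histone marks, were negative too. TET1, which oxidises 5-methylcytosine, had 819 normalised reads with both treatments, 927 with methionase alone, 899.7 with Vps34-IN1 alone and 483 in vector DMSO cells. The treated means were close to one another and above vector DMSO, where the sum was 1.64 and the combined difference 0.68 (interaction -0.97 ± 0.13 SE, adjusted p = 1.24e-05). UHRF1, which guides maintenance DNA methylation, and its relative UHRF2 had opposite signs, at 0.72 ± 0.09 (SE, adjusted p = 2.67e-06) and -0.91 ± 0.10 (SE, adjusted p = 6.81e-07).

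The subunits of the drug's target complex did not move together. PIK3C3 had 437, 430.1 and 408 normalised reads with both treatments, 419, 419 and 399 with methionase alone, 475, 471 and 526 with Vps34-IN1 alone and 658, 703 and 690.4 in vector DMSO libraries. Its combined libraries overlapped methionase alone below both other groups, an interaction of 0.46 ± 0.09 (SE, adjusted p = 5.79e-04). PIK3R4, the regulatory subunit Vps15, had 511, 502 and 544 normalised reads with both treatments, 719, 694 and 697 with methionase alone, 909.6, 918 and 869 with Vps34-IN1 alone and 935, 917 and 930.4 in vector DMSO libraries. The combined libraries were the lowest, and the drug changed PIK3R4 by -0.39 (adjusted p = 1.37e-04) in methionase cells, against -0.04 (adjusted p = 0.594) in vector cells, an interaction of -0.35 ± 0.08 (SE, adjusted p = 0.00309). BECN1, the Beclin 1 subunit, was not called, at 0.00 ± 0.09 (SE, adjusted p = 0.996). In the class 3 PI3K and autophagy list 14 of 43 genes were negative (32.6%, against 11.9% of all tested genes) and 4 positive (9.3%, against 9.92%), with a median of -0.13. GABARAPL1, an ATG8 family member that coats autophagosomes, averaged 2998 normalised reads with both treatments, 2843 with methionase alone, 3759 with Vps34-IN1 alone and 1460.3 in vector DMSO cells (interaction -1.27 ± 0.17 SE, adjusted p = 1.33e-05), and ATG2A and ATG4B, a lipid transfer protein and an ATG8 protease, were positive at 0.60 and 0.58.

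Endosomal and lysosomal genes were called in both directions. RAB5A, the GTPase of early endosomes, averaged 1219.7 normalised reads with both treatments, 1349 with methionase alone, 1723 with Vps34-IN1 alone and 1192 in vector DMSO cells (interaction -0.64 ± 0.09 SE, adjusted p = 3.60e-05), and MTMR3, a phosphatase of phosphatidylinositol 3-phosphate, was at -0.61 ± 0.07 (SE, adjusted p = 3.60e-06). Of 55 endosome and phosphoinositide genes 10 were negative and 4 positive, 25.5% in all, near the 21.8% of all tested genes. In the lysosome list 14 of 49 were negative (28.6%, against 11.9%) and 2 positive (4.08%, against 9.92%), with a median of -0.12, or -0.06 after quantile normalization. TFE3, a factor that drives lysosome genes, was at -0.47 ± 0.09 (SE, adjusted p = 9.12e-04), and the protease gene CTSB at -0.41 ± 0.09 (SE, adjusted p = 0.00139). PPARA, the fasting-responsive nuclear receptor, had 287, 252 and 252 normalised reads with both treatments, 376, 335 and 407 with methionase alone, 429, 394 and 351 with Vps34-IN1 alone and 607, 614 and 517 in vector DMSO libraries. Its combined libraries lay below the single treatments, which overlapped, and these lay below vector DMSO. The combined difference from vector DMSO was -0.94 against a sum of -1.02, and the interaction of 0.08 ± 0.11 (SE, adjusted p = 0.642) was not called.

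In the list of alpha-arrestins and MondoA factors 2 of 8 members were called, both negative. That share of 25% was near the 21.8% of all tested genes. The called members were TXNIP and MLX (interaction -0.24 ± 0.09 SE, adjusted p = 0.0488), and MLX is not an alpha-arrestin. The count of 2 was 1 without each of 9 of the 12 libraries in turn (methionase Vps34-IN1 replicates 1 and 2, methionase DMSO replicate 2 and all vector libraries). It was also 1 with the replicate block, the 24 h libraries only, no filter on low values, no variance trend, library quality weights or quantile normalization. In 557 genes both the interaction and the drug effect in methionase cells were called. In 320 of these the drug effect was larger in size in methionase cells than in vector cells, 224 of them lower and 96 higher with the drug in methionase cells. Choosing genes by a call in methionase cells itself favours a larger effect there, so these counts are a description; in 3370 genes the interaction and the drug effect in vector cells were both called. TXNIP, an alpha-arrestin that limits glucose uptake, had 121, 101 and 102 normalised reads in methionase Vps34-IN1 libraries, 844, 1576 and 2175 in methionase DMSO libraries, 222, 138 and 161 in vector Vps34-IN1 libraries and 1035, 889.9 and 662 in vector DMSO libraries. The combined libraries were the lowest and methionase alone reached the highest values, with replicate 1 the low library of that group. Without it the TXNIP interaction was -1.49 (adjusted p = 1.35e-04), and without methionase DMSO replicate 3, the high library, it was -0.85 (adjusted p = 0.0301). The drug effect on TXNIP was -3.04 (adjusted p = 3.65e-09) in methionase cells and -1.90 (adjusted p = 2.32e-07) in vector cells, an interaction of -1.14 ± 0.30 (SE, adjusted p = 0.00839). Its relative ARRDC4 was not called, at -0.34 ± 0.15 (SE, adjusted p = 0.125), although without methionase DMSO replicate 1 the adjusted p was 0.0311. DEPP1, a FOXO-induced gene, had 263, 239.8 and 184 normalised reads with both treatments, 427, 434 and 477 with methionase alone, 299, 268 and 240.5 with Vps34-IN1 alone and 269, 264 and 246 in vector DMSO libraries. Methionase alone stood above the other 3 groups, which overlapped. The methionase effect on DEPP1 was -0.18 (adjusted p = 0.13) under Vps34-IN1 and 0.63 (adjusted p = 1.29e-05) in DMSO, an interaction of -0.82 ± 0.14 (SE, adjusted p = 1.31e-04).

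EOLA1 had the opposite arrangement to DEPP1. It had 1294, 1681 and 2009 normalised reads with both treatments, 639, 677 and 701 with methionase alone, 1299, 1383 and 1668 with Vps34-IN1 alone and 1261, 1442 and 1384 in vector DMSO libraries. Methionase alone stood apart below the other 3 groups, which overlapped. The drug effect on EOLA1 was 1.19 (adjusted p = 1.71e-05) in methionase cells and 0.08 (adjusted p = 0.705) in vector cells (interaction 1.11 ± 0.21 SE, adjusted p = 4.91e-04). POLR3C, an RNA polymerase III subunit, and UTP14A, a ribosome assembly factor, also had a drug effect in methionase cells, at 0.52 (adjusted p = 5.28e-05) and 0.43 (adjusted p = 0.00104). Their interactions were 0.57 ± 0.10 (SE, adjusted p = 2.27e-04) and 0.49 ± 0.11 (SE, adjusted p = 0.00213).

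Few called genes had both single means on 1 side of vector DMSO and the combined mean beyond their sum. Both single means lay below vector DMSO in 23 of the 2117 negative genes (1.09%, against 33.8% of all tested genes). Both lay above it in 6 of the 1761 positive genes (0.341%, against 35.4%). The vector DMSO mean enters the interaction itself, so the test disfavours such genes and the low counts are a description. MTRFR, a release factor that rescues stalled mitochondrial ribosomes, had 309, 251 and 281 normalised reads with both treatments, 478, 472 and 543 with methionase alone, 674, 571 and 599 with Vps34-IN1 alone and 807, 751 and 683 in vector DMSO libraries. Its 4 groups did not overlap. The combined difference was -1.20 against a sum of -0.77, an interaction of -0.43 ± 0.11 (SE, adjusted p = 0.00701). Both single effects on MTRFR were called, at -0.52 (adjusted p = 1.66e-05) for methionase and -0.25 (adjusted p = 0.0141) for Vps34-IN1. By their means PIK3R4, described above, was another of these genes, although its drug effect in vector cells was not called, as were RAB11FIP1, an effector of recycling endosomes (interaction -0.39 ± 0.10 SE, adjusted p = 0.00623), and SSR1, a subunit of the ER translocon (interaction -0.33 ± 0.08 SE, adjusted p = 0.00358). The drug effect in vector cells was not called in RAB11FIP1 (-0.03 (adjusted p = 0.748)), and neither single effect was in SSR1 (-0.07 (adjusted p = 0.359) for methionase and -0.02 (adjusted p = 0.802) for Vps34-IN1). Of the positive ones, MRPL20, a mitochondrial ribosomal protein, averaged 1427 ± 20.5 normalised reads with both treatments, 1125 ± 50.7 with methionase alone, 1046 ± 22 with Vps34-IN1 alone and 1027 ± 64 in vector DMSO cells (SD, n = 3 each), an interaction of 0.30 ± 0.08 (SE, adjusted p = 0.0083); neither of its single effects was called.

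The methionase effects under Vps34-IN1 and in DMSO were both called with opposite signs in 508 of the called genes, 302 with a negative and 206 with a positive interaction. Of the 12 largest negative genes, RHOB, CCN1, ATF3, JUN, KLF6, ADAMTS1, SOX4, GADD45A and ERRFI1 were among them: methionase raised each in DMSO and lowered each under Vps34-IN1. ADAMTS1, a secreted metalloprotease, averaged 16849 normalised reads with both treatments, 15716 with methionase alone, 22021 with Vps34-IN1 alone and 3568 in vector DMSO cells. SOX4, a developmental transcription factor, averaged 5188 normalised reads with both treatments, 6461 with methionase alone, 7996 with Vps34-IN1 alone and 2479 in vector DMSO cells. ERRFI1, an inhibitor of EGF receptor signalling, averaged 1185 normalised reads with both treatments, 1626 with methionase alone, 2020.2 with Vps34-IN1 alone and 661 in vector DMSO cells. In each of the 3, Vps34-IN1 alone had the highest mean and vector DMSO the lowest. The 2 drug effects had opposite called signs in 173 genes. The interaction is the difference of the paired effects, so choosing genes called for it favours opposite signs, and these counts are a description.

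The remaining lists had few calls or calls in both directions, read against 21.8% of all tested genes. Of 74 cytosolic ribosomal protein genes 2 were called, both negative, and the median of -0.10 was 0.03 after quantile normalization. That count was 1 without methionase Vps34-IN1 replicate 1 or 3, methionase DMSO replicate 1, vector Vps34-IN1 replicate 3, or vector DMSO replicate 1 or 3. It was also 1 with the replicate block, the 24 h libraries only or no filter on low values. Among 30 proteasome genes 3 were called, all positive, or 6 after quantile normalization. Of 15 mitochondrially encoded RNAs 1 was called, CYTB, a subunit of respiratory complex III. It had 36199, 37540.2 and 43115 normalised reads with both treatments, 19373, 38469 and 37458 with methionase alone, 22658, 25464 and 23383 with Vps34-IN1 alone and 43181, 38793 and 60373 in vector DMSO libraries. The low CYTB libraries were all 3 with Vps34-IN1 alone and methionase DMSO replicate 1, and the interaction was 1.32 ± 0.33 (SE, adjusted p = 0.00558). Without that replicate the interaction was 0.999 (adjusted p = 0.0187), and the count of called mitochondrial RNAs was then 2. The same count was 2 after quantile normalization and with library quality weights. Mitochondrial mRNAs, CYTB among them, took 3.8 to 4.3% of reads with both treatments and 2.1 to 4.6% with methionase alone. They took 2.5 to 3.0% with Vps34-IN1 alone and 2.3 to 3.9% in vector DMSO libraries. The part of these shares in the CYTB result was not tested. Translation initiation factors had 6 calls among 37 genes, and 3 without methionase Vps34-IN1 replicate 1, methionase DMSO replicate 2 or vector DMSO replicate 3. They also had 3 with no filter on low values or with the 24 h libraries only. Heat shock and cytosolic chaperones had 4 among 25, and 7 after quantile normalization or without methionase Vps34-IN1 replicate 3. G2/M genes had 9 calls among 34, and G1/S genes 16 among 52, with 10 in a fit of the 24 h libraries only.

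KEAP1, which holds the antioxidant factor NRF2 in check, was positive (0.70 ± 0.11 SE, adjusted p = 4.40e-05). NFE2L1, a factor related to NRF2, was negative (-0.70 ± 0.09 SE, adjusted p = 1.06e-05). Their list had 4 calls in each direction among 24 genes (16.7% each). Over all tested genes 11.9% were negative and 9.92% positive, and the shares below are read against these. Of 39 genes of PPARA, FOXO and insulin signalling 7 were negative (17.9%) and 3 positive (7.69%). Of 23 cullin ligase genes 6 were negative (26.1%) and 2 positive (8.7%), and of 33 chromatin remodelling genes 6 (18.2%) and 4 (12.1%). Of 16 DNA methylation genes 2 were negative (12.5%) and 4 positive (25%), and of 16 polyamine genes 3 (18.8%) and 2 (12.5%). Of 14 repressor partners of zinc finger proteins 1 was negative (7.14%) and 2 positive (14.3%). Of 12 nuclear receptor coactivators 3 were negative (25%) and 1 positive (8.33%). Without methionase Vps34-IN1 replicate 1 the 5 polyamine calls were 3, and after quantile normalization they were 2. Without methionase DMSO replicate 1 or 2, or vector DMSO replicate 1, the 3 calls among repressor partners were 1. They were also 1 with no filter on low values, no variance trend or the 24 h libraries only, and 5 with a stricter filter at 1 log2. Calls among chromatin remodelling genes were 6 with no filter on low values.

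**Figure D5:**
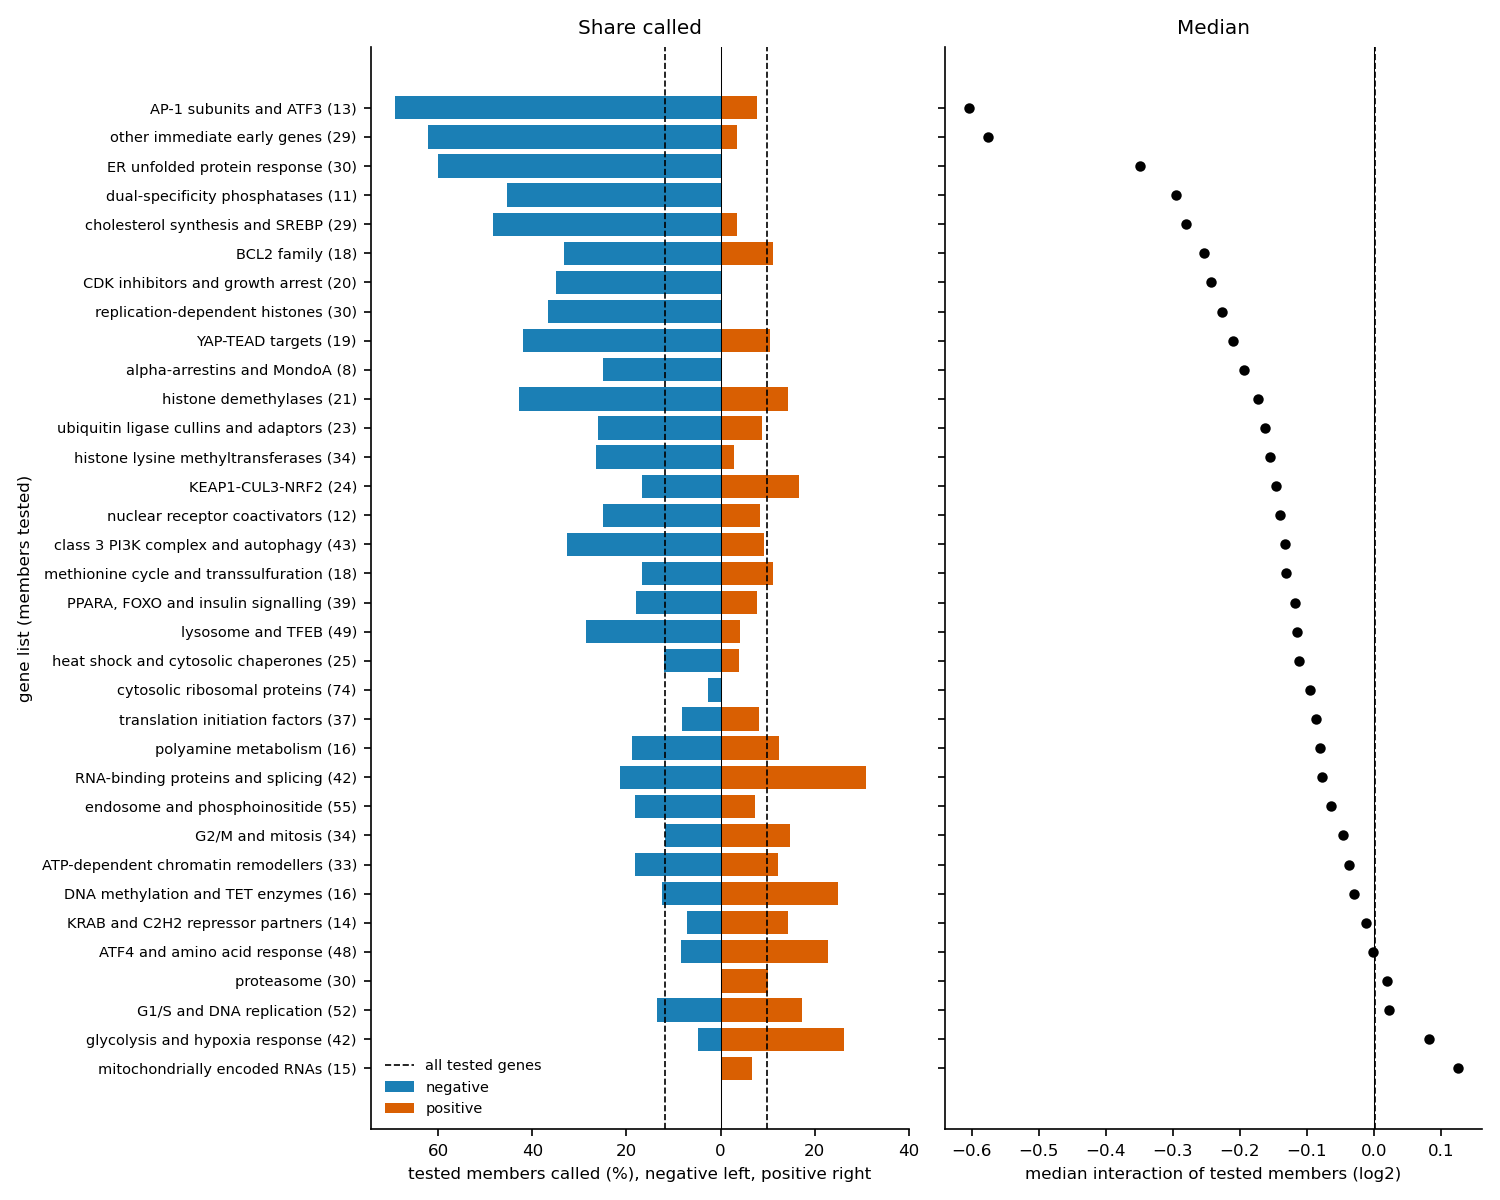
For each of 34 gene lists (number of tested members in brackets) the left panel gives the share of tested members called (%), negative to the left and positive to the right of 0, with dashed lines at the shares over all tested genes (11.9% and 9.92%), and the right panel the median log2 interaction. AP-1 subunits have the most negative median (-0.60), and the glycolysis list has more positive (26.2%) than negative (4.76%) calls.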

How the data were processed

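RNA with poly-A tails was read on a DNBSEQ-G400 from strand-marked (dUTP) libraries, per the labels' protocols. STAR 2.7.10b, featureCounts, DESeq2, limma and hg38 are named in the submitters' processing notes, with no role given. The deposited table, made by the authors, holds variance-stabilised log2 values, 1 line per gene. Undoing the transformation gave whole reads for 100% of values within 0.01, from which normalised reads (reads divided by a size factor) were computed; a line without a gene name, at most 0.00216% of reads, was left out. limma 3.58.1 (R 4.3.3) was fitted to the log2 values of all 18 libraries with 1 mean per group and a variance trend. The 6 libraries at 12 h added to the spread, its trend and the mean by which genes entered, not to the differences between groups. Genes entered with a mean at least 0.5 log2 above the lowest value of the table, 5.45, and a call needed p below 0.05 after Benjamini-Hochberg adjustment over 17755 genes; without adjustment 5986 had p below 0.05. The 34 gene lists and the genes followed were chosen with earlier results of these data known. Named genes are the 12 largest called interactions in each direction, up to 4 called members per list by adjusted p, up to 2 called members against a list's majority, and a panel of 16. Chosen after their values were seen were HERPUD1, XBP1, ERN1, EIF2AK3, HMGCS1, FOS, SRSF2, SRSF3, SRSF6, CLK1, DEPP1, MTRFR, RAB11FIP1, POLR3C, UTP14A, MRPL20, SSR1 and PDK1. Some results of named genes are not reported here. Alternatives changed the filter, normalization, trend, weights, libraries, replicate block and scale.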

Additional observations from a re-analysis of the deposited data

Results flagged for a closer look

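In 3878 genes the methionase effect under Vps34-IN1 differed from that in DMSO by the test of the difference itself. Choosing genes by that difference itself favours effects of opposite sign. In 508 of the 3878 genes both methionase effects were called with opposite signs. Among the largest departures this held, with the log2 interaction in brackets, for RHOB (-3.90), CCN1 (-3.87), ATF3 (-3.19), JUN (-3.08), KLF6 (-2.53), ADAMTS1 (-2.50), SOX4 (-1.97), GADD45A (-1.96) and ERRFI1 (-1.93), where methionase lowered the gene under Vps34-IN1 and raised it in DMSO. The reverse held for RBM12 (1.33), CYTB (1.32), EMILIN3 (1.20), ZNF587B (1.16), FASTKD5 (1.12) and CXCR4 (1.11). For CYTB the methionase effect in DMSO was -0.62 (adjusted p = 0.0397), and methionase DMSO replicate 1 was the low library of its group. Without that library the CYTB interaction was 0.999 (adjusted p = 0.0187).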

How the results depend on the processing

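The interaction was refitted under 11 other settings and without each of the 12 libraries in turn. Its count of 3878 calls ranged from 3024 (24 h libraries only) to 4447, and from 3100 to 4447 when 1 library was left out. The count at or above 1 on the log2 scale, 94 on the deposited values, was 707 with voom, 704 with a pseudocount of 1 and 403 with a pseudocount of 10. The count of drug effects in methionase cells, 1408, was 625 with library quality weights, 820 with the 24 h libraries only, and 860 to 1545 when 1 library was left out, lowest without methionase DMSO replicate 3. The cause was not tested. Of 175 named genes 172 were called, 158 of them under every setting, and none changed direction. The share of positive calls was 45.4%, and 50.7% after quantile normalization, where 1848 genes were positive and 1800 negative. With the replicate number as a block, 3769 genes were called, 1704 positive and 2065 negative. Same-numbered libraries deviated together with r between -0.303 and 0.352, and 2 of 12 correlated best with their own number, so the numbers were not taken as pairs. With 3 libraries per group, small departures in genes with few reads may pass unseen.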
